A study of Mus musculus with 12 samples.

Results

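The 9 transcription factors described here direct or restrain the lineages of CD4+ helper T cells: *Bcl6*, *Maf*, *Gata3*, *Tbx21*, *Rora*, *Foxp3*, *Tcf7*, *Lef1* and *Prdm1*. They were taken by name from a list of lineage factors by a rule that uses no measured value, although earlier results of these data were known when the list was made, and are 9 of the 56691 mouse genes in the count table. All 9 were among the 15138 genes tested, each of which had a total of 30 reads or more. Their reads, summed over all samples, numbered from 609 for *Foxp3* to 148151 for *Tcf7*.

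Helper T cells take up one of several programmes after antigen recognition, each tied to a small set of transcription factors. *Bcl6* and *Maf* are linked to follicular helper cells, *Tbx21* (T-bet) to Th1, *Gata3* to Th2, *Rora* to Th17 and *Foxp3* to regulatory T cells, while *Prdm1* (Blimp-1) opposes *Bcl6*. *Tcf7* (TCF-1) and *Lef1* are related factors of naive and memory-like cells, which T cells tend to lower as they differentiate.

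The libraries were QuantSeq 3′ mRNA libraries of splenic CD4+ T cells that were sorted as positive for both the Blue and the Red form of the *Nr4a3*-Timer protein. This reporter is made when *Nr4a3* is transcribed after T cell receptor signalling, and its Blue form matures into the Red form. All 12 mice were Tg4 *Nr4a3*-Tocky *Il10*-GFP animals, in which the Tg4 transgene gives most CD4+ T cells one T cell receptor for a myelin basic protein peptide. Each of the 4 groups had 3 mice, and all of them, the isotype mice included, had been given 4 mg/kg [4Y]-MBP peptide and, after 24 h, an antibody treatment (0.5 mg of a single antibody or isotype pool). The groups received the isotype pool (isotype), anti-PD-L1, anti-Lag3 or both blocking antibodies, pooled in equal parts (CB). Whether 0.5 mg in CB was the whole pool or each antibody is not clear from the sources used here. A second peptide dose of 0.4 mg/kg followed 30 min later in every group, and the spleens were collected 12 h after it. Because the cells were sorted in bulk, fewer cells of a kind and less RNA per cell cannot be told apart in any of the values below. In mice treated alike, the paper reports a larger share of Blue and Red positive cells with each antibody than with isotype. The share was largest with CB, so the sorted cells may be a different part of the population in each group. What this adds to the values was not tested. A single receptor transgene and a single time point limit what these groups can stand for.

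Each library had 16449370 to 22151025 reads on mouse genes (median 19176439). The 8 CD4+ T cell markers, led by *Cd3d*, together stood at 2280 to 2730 CPM (read counts relative to the TMM-scaled library size), so the defining markers of the labelled cell type were present. B cell markers summed to at most 32 CPM, myeloid markers to between 50.9 and 90.2 CPM, mostly *Cst3* with *Cd14* at 0, and markers of type 2 innate lymphoid cells to at most 10.6 CPM with *Il5* at 0. On the second principal component of the rlog values the 4 samples numbered 1, which hold 1 mouse of each group, lay between -4.91 and -2.87, apart from the other 8 at -1.13 to 3.46. The cells of the 4 groups were stained apart, with a different label on the CD4 antibody for each group, and sorted together in batches of 4. The sources used here do not say whether the sample numbers mark those batches. The paper ascribes the second component of its own analysis mostly to batches of the sort. Calls that were lost without the 4 samples numbered 1 are named below.

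Compared with isotype, CB raised *Maf* to 1.58-fold and lowered *Gata3* to 0.519-fold, *Lef1* to 0.641-fold and *Tcf7* to 0.817-fold. These 4 of the 9 factors passed an adjusted p of 0.05 (quasi-likelihood test of edgeR, Benjamini-Hochberg adjustment across the tested genes), where 4.29% of all genes were called. Of all genes, 2.33% were called higher, as 1 of the 9 factors was, and 1.96% lower, as 3 of the 9 were. The samples of both groups did not overlap for 5 of the 9 (the same 4 and *Foxp3*), a pattern that 20% of all genes showed. The median absolute log2 fold change was 0.64 for the 9 factors and 0.39 for all genes tested, and the signed medians were 0.21 and 0. *Bcl6*, *Tbx21*, *Rora*, *Foxp3* and *Prdm1* did not pass the test. Without the 4 samples numbered 1, *Maf* (0.54), *Gata3* (-0.76) and *Lef1* (-0.61) were still called and *Tcf7* (-0.32) was not.

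**Figure D1:**
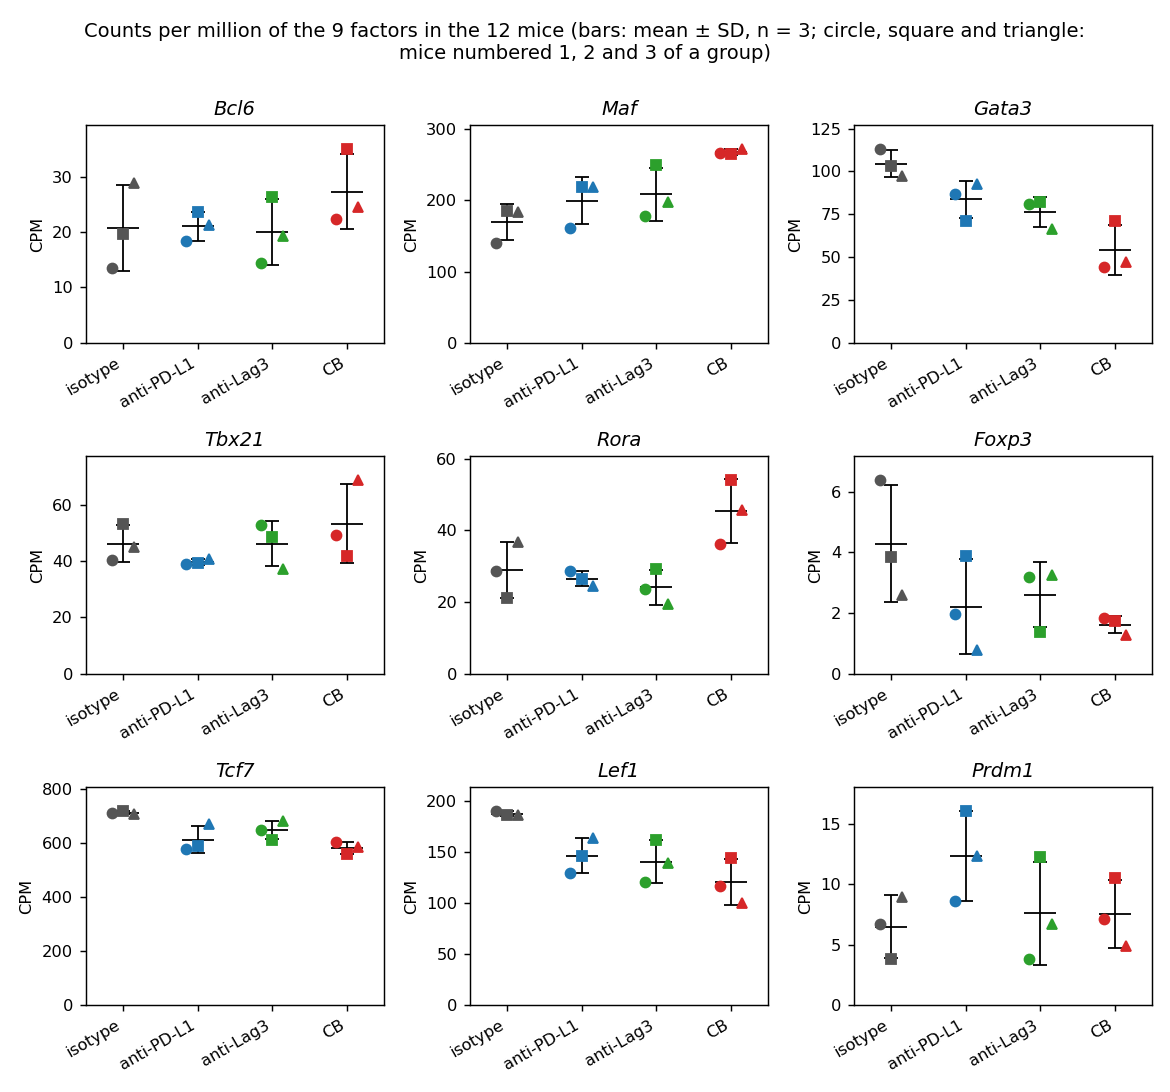
CPM (TMM-scaled read counts, vertical axis) of the 9 factors in every mouse, by treatment group, with the group mean and SD (n = 3). The 3 CB points of *Maf* lie above every other mouse, and the 3 isotype points of *Gata3*, *Tcf7* and *Lef1* lie above all 9 treated mice.

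Among the follicular helper factors, *Maf* (ENSMUSG00000055435, chromosome 8 from 115682942 to 115707794 of GRCm38, minus strand) stood at 140.5, 184.5 and 184.3 CPM in the isotype mice and at 265.8, 265.4 and 272.3 CPM in the CB mice. The anti-PD-L1 mice had 161, 219 and 218.7 CPM and the anti-Lag3 mice 178.2, 249.9 and 197.5 CPM. Every CB mouse was thus above every mouse of the other 3 groups, and the groups with 1 antibody overlapped with isotype and with each other. The CB values also lay close together, at 267.8 ± 3.89 CPM (SD, n = 3) against 169.8 ± 25.4 in isotype. In CB against isotype the log2 fold change was 0.66 (SE 0.14, 95% interval 0.38 to 0.94, adjusted p = 0.00363). It was 0.54 to 0.72 with any 1 of the 12 samples left out, and *Maf* was called each time. Against anti-PD-L1 (0.42, SE 0.14, adjusted p = 0.236) and against anti-Lag3 (0.36, SE 0.13, adjusted p = 0.317) the gain did not pass the test. The fitted values of anti-PD-L1 against isotype (0.23, SE 0.14, adjusted p = 0.593) and of anti-Lag3 against isotype (0.30, SE 0.14, adjusted p = 0.805) did not pass either.

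*Bcl6* (ENSMUSG00000022508, chromosome 16 from 23965052 to 23988852, minus strand), the repressor that directs follicular helper cells, was measured at 13.6, 19.6 and 28.9 CPM in isotype and 22.3, 35.0 and 24.6 CPM in CB. The anti-PD-L1 mice had 18.3, 23.6 and 21.3 CPM and the anti-Lag3 mice 14.3, 26.3 and 19.3 CPM. All groups overlapped, and in each group the mouse numbered 1 had the lowest value. CB differed from isotype by a log2 fold change of 0.40 (SE 0.29, 95% interval -0.20 to 0.99, adjusted p = 0.552), so a rise of the size seen for *Maf* lies within the interval, as does no change.

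*Prdm1* (ENSMUSG00000038151, chromosome 10 from 44437177 to 44528501, minus strand), which encodes the opponent of *Bcl6*, rested on 1981 reads in all. Its levels were 6.74, 3.80 and 8.95 CPM in isotype, 8.60, 16.1 and 12.4 CPM with anti-PD-L1, 3.80, 12.2 and 6.72 CPM with anti-Lag3 and 7.13, 10.5 and 4.89 CPM in CB. The anti-PD-L1 group had the highest mean, 12.4 ± 3.75 CPM, but its lowest mouse lay below the highest isotype mouse. Its log2 fold change against isotype was 0.92 (SE 0.47, 95% interval -0.05 to 1.90, adjusted p = 0.593). That of CB against isotype was 0.21 with an interval from -0.76 to 1.176 (adjusted p = 0.941), an interval that includes a fall and a rise.

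*Gata3* (ENSMUSG00000015619, chromosome 2 from 9857078 to 9890034, minus strand), the Th2 factor that is also needed in naive CD4+ T cells, had the lowest log2 fold change of the 4 called factors. Isotype mice had 113.2, 102.9 and 97.6 CPM, anti-PD-L1 mice 86.9, 71.3 and 92.7 CPM, anti-Lag3 mice 80.8, 82.2 and 66.1 CPM and CB mice 44.5, 71.2 and 47.0 CPM. All 9 mice with a blocking antibody were below all 3 isotype mice. CB mouse 2, at 71.2 CPM, lay within the anti-Lag3 range and just below the lowest anti-PD-L1 mouse. The log2 fold change of CB against isotype was -0.95 (SE 0.17, 95% interval -1.29 to -0.61, adjusted p = 8.42e-04), and from -1.19 to -0.82 with any 1 sample left out, each time called. The means fell in the order isotype (104.5 ± 7.92 CPM), anti-PD-L1 (83.7 ± 11.04), anti-Lag3 (76.4 ± 8.92) and CB (54.2 ± 14.8), and no neighbouring pair in this order passed the test. For CB against anti-Lag3 the log2 fold change was -0.49 (SE 0.16, adjusted p = 0.222), and without CB mouse 2 it was -0.74 and called. CB against anti-PD-L1 gave -0.63 (SE 0.17, adjusted p = 0.109), and -0.87 and a call without the same mouse.

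*Tbx21* (ENSMUSG00000001444, chromosome 11 from 97098071 to 97115331, minus strand), the Th1 factor, was 40.2, 53.1 and 45.1 CPM in isotype and 49.1, 41.7 and 68.8 CPM in CB. The values were 38.9, 39.4 and 40.8 CPM with anti-PD-L1 and 52.8, 48.5 and 37.3 CPM with anti-Lag3. CB mice overlapped with isotype and anti-Lag3 and lay above all anti-PD-L1 mice. The log2 fold change of CB against isotype was 0.21 (SE 0.19, 95% interval -0.19 to 0.61, adjusted p = 0.70), and without CB mouse 3 it was -0.02. Against anti-PD-L1 it was 0.42 (SE 0.20, adjusted p = 0.521).

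*Rora* (ENSMUSG00000032238, chromosome 9 from 68653786 to 69388246, plus strand), a nuclear receptor that takes part in the Th17 programme, was 36.2, 54.1 and 45.8 CPM in CB. It was 28.7, 21.3 and 36.8 CPM in isotype, 28.8, 26.4 and 24.5 CPM with anti-PD-L1 and 23.5, 29.2 and 19.5 CPM with anti-Lag3. Every CB mouse exceeded every mouse that had received a single antibody, and the highest isotype mouse stood just above the lowest CB mouse. The log2 fold change of CB was 0.91 against anti-Lag3 (SE 0.23, 95% interval 0.43 to 1.40, adjusted p = 0.0704), 0.77 against anti-PD-L1 (SE 0.23, adjusted p = 0.199) and 0.65 against isotype (SE 0.23, adjusted p = 0.134). None of the 3 passed in edgeR. DESeq2 called the first of them (adjusted p = 0.0207), and over 9 alternatives its adjusted p ranged from 0.0117 to 0.184, with 4 calls.

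*Foxp3* (ENSMUSG00000039521, chromosome X from 7573644 to 7595245, plus strand), which defines regulatory T cells, was the factor with the fewest reads. It stood at 6.39, 3.86 and 2.595 CPM in isotype, 1.97, 3.87 and 0.774 CPM with anti-PD-L1, 3.19, 1.39 and 3.26 CPM with anti-Lag3 and 1.83, 1.73 and 1.29 CPM in CB. The CB mice were all below the isotype mice and overlapped with the other 2 groups. CB differed from isotype by a log2 fold change of -1.40 (SE 0.90, 95% interval -3.24 to 0.44, adjusted p = 0.468). The counts behind it were 99 reads in the CB group and 237 in isotype. Strand settings of the counting are not given in the sources used here, and 3 annotated genes with reads overlap *Foxp3*: *Ccdc22* on the opposite strand with 2328 reads, *Flicr* on the same strand with 75 and *Ppp1r3f* on the opposite strand with 58.

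*Tcf7* (ENSMUSG00000000782, chromosome 11 from 52252371 to 52283014, minus strand) was the best counted of the 9 factors. Its isotype values lay close together, at 713.2, 720.2 and 706.8 CPM. They were 577, 591 and 671.6 CPM with anti-PD-L1, 650.2, 613.5 and 680.8 CPM with anti-Lag3 and 603.6, 559.9 and 584.2 CPM in CB. All 9 mice with a blocking antibody were below all isotype mice, and all CB mice were also below all anti-Lag3 mice. The log2 fold change of CB against isotype was -0.29 (SE 0.083, 95% interval -0.46 to -0.12, adjusted p = 0.0405). This call lay near the threshold: it held in 5 of the 12 fits with 1 sample left out (adjusted p from 0.0309 to 0.131). It was lost without any one of the isotype mice, without any one of the CB mice, where the adjusted p was 0.065 to 0.129, and without anti-Lag3 mouse 3 (adjusted p = 0.0501). The fold change stayed between -0.32 and -0.26 throughout. Tested against 0.2 in place of 0, its adjusted p was 0.417, and without the samples numbered 1 it was 0.0972. The antisense gene *A630014C17Rik*, which overlaps *Tcf7*, had 362 reads against 148151 for *Tcf7*. On the same strand *Gm26551* overlaps *Tcf7* too, and it has no row in the count table.

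*Lef1* (ENSMUSG00000027985, chromosome 3 from 131110471 to 131224356, plus strand), the relative of *Tcf7*, was 190.8, 186.8 and 186.4 CPM in isotype. It was 129.7, 146.1 and 164.2 CPM with anti-PD-L1, 120.6, 162.3 and 139.5 CPM with anti-Lag3 and 116.9, 144.6 and 100.2 CPM in CB. As for *Tcf7*, the isotype mice were tightly grouped and above all 9 others, while the 3 groups with antibody overlapped with each other. For CB against isotype the log2 fold change was -0.64 (SE 0.14, 95% interval -0.92 to -0.36, adjusted p = 0.00502). The call held in 11 of 12 fits with 1 sample left out. Without CB mouse 3 the value was -0.52 with an adjusted p of 0.0568. The antisense gene *Gm43352*, which spans the annotated start of *Lef1*, had 821 reads against 34435 for *Lef1*. Within *Lef1*, *Gm42449* on the same strand had 109 reads.

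The sequence before a RefSeq start is shown for *Gata3* and *Lef1*, the called factors with the lowest log2 fold changes in CB, from the promoters of RefSeq (GRCm38.p6). RefSeq promoters were found for 8 of the 9 factors, *Maf* being the exception. Each line below is the 250 bases before the RefSeq start, 5′ to 3′ on the strand of the gene, and capitals mark the letters GGAAA, the core bound by NFAT, or their reverse complement TTTCC. The *Gata3* window is chr2:9878601-9878850 on the minus strand. It is inside the GENCODE locus given above, which reaches further upstream than the RefSeq start, and lies within the span of the antisense gene *Gm13256*, which had 0 reads. The *Lef1* window is chr3:131110073-131110322 on the plus strand and lies within the span of the antisense gene *Gm43352*.
Gata3: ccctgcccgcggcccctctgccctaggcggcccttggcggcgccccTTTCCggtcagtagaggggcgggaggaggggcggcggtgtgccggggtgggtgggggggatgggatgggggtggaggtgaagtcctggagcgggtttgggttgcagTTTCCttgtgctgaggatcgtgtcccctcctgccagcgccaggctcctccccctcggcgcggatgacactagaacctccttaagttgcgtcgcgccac
Lef1: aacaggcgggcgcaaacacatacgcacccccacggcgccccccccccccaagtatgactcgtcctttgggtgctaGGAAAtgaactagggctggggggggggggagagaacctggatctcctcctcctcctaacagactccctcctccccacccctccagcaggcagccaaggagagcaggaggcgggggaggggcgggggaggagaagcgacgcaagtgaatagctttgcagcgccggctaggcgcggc
GGAAA occurred 2 times in the *Gata3* window and 1 time in the *Lef1* window, and 55.6% of 32851 RefSeq promoters cut to the same length hold it on either strand. On both strands, neither window held TGANTCA (searched for AP-1, in 6.75% of all promoters), AGATAA (for the GATA factors, in 9.99%), CTTTGA (for TCF and LEF, in 13.8%) or AGGTCA (for ROR, in 14%). The motifs do not overlap in these windows. Among the other 6 factors with an entry, *Bcl6*, *Tbx21*, *Rora* and *Foxp3* had 1 GGAAA match each, *Tcf7* and *Prdm1* had 0, and *Prdm1* had 1 TGANTCA match. The *Foxp3* and *Prdm1* windows also lie inside their GENCODE loci. In the *Tcf7* window an ATG opens a reading frame without a stop up to the window's end, so the window may hold coding sequence. Other starts of these genes were not examined, and the start used in these cells was not tested.

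The fitted fall of *Gata3*, *Tcf7* and *Lef1* was also seen with each antibody alone by the separation of the samples, although no factor passed the test in either comparison. For anti-PD-L1 against isotype, 0 of the 9 factors were called, where 0.033% of all genes were called, and 2 (*Tcf7* and *Lef1*) had an unadjusted p under 0.05, as did 7.84% of all genes. The log2 fold changes were -0.36 for *Lef1* (SE 0.14, adjusted p = 0.525), -0.32 for *Gata3* (SE 0.16, adjusted p = 0.593) and -0.22 for *Tcf7* (SE 0.083, adjusted p = 0.525). For anti-Lag3 against isotype, 0 of the 9 were called, as was 0% of all genes, and 3 (*Maf*, *Gata3* and *Lef1*) had an unadjusted p under 0.05, as did 5.21% of all genes. Here the values were -0.42 for *Lef1* (SE 0.14, adjusted p = 0.805), -0.45 for *Gata3* (SE 0.16, adjusted p = 0.805) and -0.14 for *Tcf7* (SE 0.083, adjusted p = 0.805). DESeq2 called 0 of the 9 factors in either comparison as well, and 0.37% and 0.0595% of all genes. In both comparisons the treated and isotype mice did not overlap for these 3 factors, where 11.8% and 10.1% of all genes did not overlap. The 3 comparisons with isotype use the same 3 isotype mice, whose values for *Tcf7* and *Lef1* varied by only 0.939% and 1.28% (coefficient of variation), so they are not independent of each other.

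**Figure D2:**
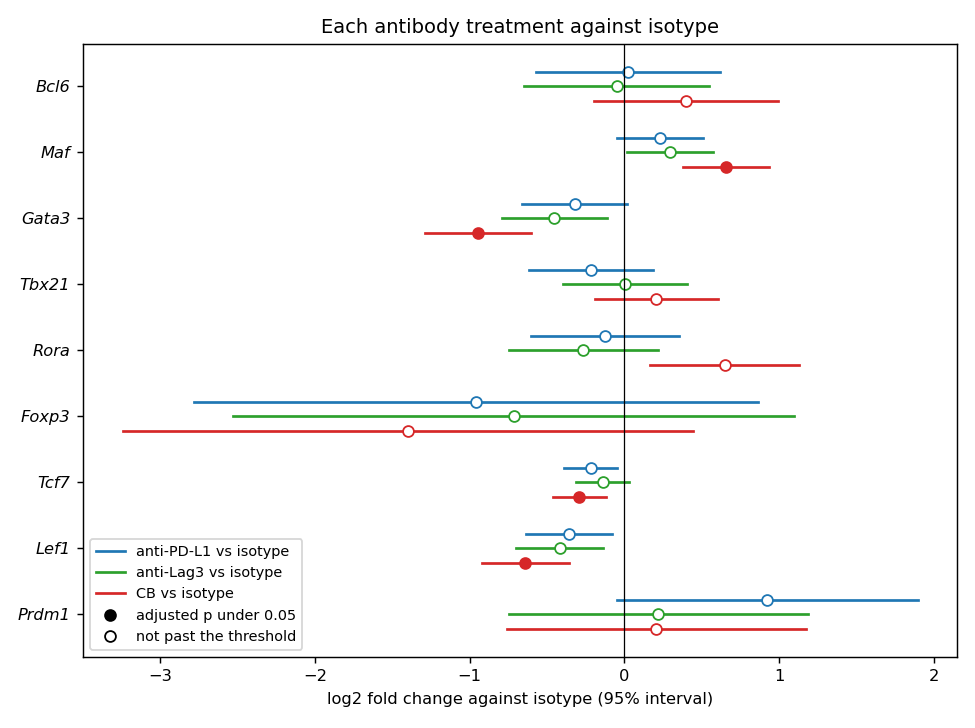
Log2 fold change against isotype (horizontal axis) of the 9 factors for anti-PD-L1, anti-Lag3 and CB, with the 95% interval of each edgeR estimate and filled points where the adjusted p was under 0.05. Only the CB values of *Maf*, *Gata3*, *Tcf7* and *Lef1* are filled, and the *Foxp3* intervals are the widest.

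Setting CB against the single antibodies asks what the second antibody added only if each antibody had the same dose in CB. Against anti-PD-L1, 0 of the 9 factors were called in edgeR (0.37% of all genes), 5 had an unadjusted p under 0.05 (9.08% of all genes), and for 4 the samples did not overlap (12.7% of all genes): *Maf*, *Tbx21* and *Rora* above, *Gata3* below. DESeq2 called 1 of them, *Gata3* (1.18% of all genes). Against anti-Lag3, 0 of the 9 were called in edgeR (0.694% of all genes) and 3 had an unadjusted p under 0.05 (9.46% of all genes). The samples did not overlap for *Maf*, *Rora* and *Tcf7* (3 of 9, with 14.8% of all genes). DESeq2 called *Rora* alone (1.85% of all genes) and gave no adjusted p for *Foxp3* and *Prdm1*. In an edgeR fit with the sample number as a replicate block, *Maf* (0.44, adjusted p = 0.0315) and *Gata3* (-0.64, adjusted p = 0.0313) were called against anti-PD-L1 and *Rora* (0.91, adjusted p = 0.0352) against anti-Lag3. *Lef1* differed by -0.28 from anti-PD-L1 (SE 0.14, adjusted p = 0.545) and by -0.22 from anti-Lag3 (SE 0.14, adjusted p = 0.587).

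Between the single antibodies, 0 of the 9 factors were called in edgeR and in DESeq2 and 0 had an unadjusted p under 0.05 (4.69% of all genes). Of all genes, edgeR called 0% and DESeq2 0.0661%. The count was also 0 of the 9 factors for samples without overlap, against 8.7% of all genes. The log2 fold changes of anti-PD-L1 against anti-Lag3 were 0.13 for *Gata3* (95% interval -0.21 to 0.47), -0.06 for *Maf* (-0.34 to 0.21), 0.06 for *Lef1* (-0.22 to 0.34) and -0.08 for *Tcf7* (-0.25 to 0.09). The largest was 0.70 for *Prdm1*, with an interval from -0.26 to 1.67.

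The interaction, which is the CB value minus both single-antibody values plus isotype, tests for a departure from additivity on the log2 scale. It too assumes an equal dose of each antibody in CB and in the single-antibody groups. It was called for 0 of the 9 factors in edgeR and in DESeq2, and for 0% of all genes in edgeR and 0.033% in DESeq2. Of the 9, only *Rora* had an unadjusted p under 0.05 (5.93% of all genes). *Rora* had the value 1.04 (SE 0.33, 95% interval 0.36 to 1.72, unadjusted p = 0.00414, adjusted p = 0.804): its single-antibody groups had lower means than isotype and its CB group a higher one. The values of the 4 factors called in CB were 0.13 for *Maf* (interval -0.26 to 0.52), -0.17 for *Gata3* (-0.65 to 0.30), 0.06 for *Tcf7* (-0.18 to 0.31) and 0.13 for *Lef1* (-0.26 to 0.53). A test of any difference among the 4 groups called *Gata3* (adjusted p = 0.00882), *Maf* (adjusted p = 0.029) and *Lef1* (adjusted p = 0.0389), 3 of 9 where 2.15% of all genes were called. The adjusted p was 0.0746 for *Rora* and 0.21 for *Tcf7*. DESeq2 called 5 of the 9, the same 3 with *Rora* and *Tcf7*, and 4.13% of all genes. This test rested on few mice: it called 0 of the 9 without CB mouse 1, without CB mouse 3 or without the 4 samples numbered 1, and only *Gata3* without isotype mouse 1. *Lef1* was also not called by it without isotype mouse 2 or 3 or anti-Lag3 mouse 3, nor was *Maf* without CB mouse 2.

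Ratios of factors within a mouse do not depend on library size and were compared by a two-sided exact permutation test, which cannot give a p under 0.1 with 3 mice against 3. They are made from the same values as the tests above and add no independent evidence. For *Maf* to *Gata3*, a difference of CB from isotype follows from the rise of *Maf* and the fall of *Gata3*. The log2 ratio of *Maf* to *Gata3* was 0.312, 0.843 and 0.917 in isotype, 0.889, 1.62 and 1.24 with anti-PD-L1, 1.14, 1.604 and 1.58 in the anti-Lag3 mice and 2.58, 1.90 and 2.54 in CB. All CB mice were above all other mice. The mean was 1.65 higher in CB than in isotype, 3.13-fold (exact permutation p = 0.1, adjusted p = 0.2 over 24 tests), and exceeded the anti-PD-L1 mean by 1.09 and the anti-Lag3 mean by 0.90 (exact permutation p = 0.1 for each).

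The log2 ratio of *Tbx21* to *Gata3* was 0.142, -0.770 and 0.551 in CB and -1.49, -0.954 and -1.11 in isotype, without overlap, a difference of 1.16 (exact permutation p = 0.1, adjusted p = 0.2). CB mouse 2, with the highest *Gata3* of its group, gave the lowest of the 3 CB ratios and overlapped with anti-Lag3. The *Tcf7* to *Lef1* ratio was narrow in isotype, at 1.90, 1.95 and 1.92, and 2.37, 1.95 and 2.54 in CB (difference 0.36, exact permutation p = 0.1, adjusted p = 0.2). CB mouse 2, with the highest *Lef1* of its group, was only slightly above the highest isotype mouse. *Bcl6* to *Prdm1* did not separate CB from isotype (difference 0.21, exact permutation p = 0.7). This ratio was lowest with anti-PD-L1, at 1.09, 0.549 and 0.779, below all CB mice (1.64, 1.73 and 2.32) and all anti-Lag3 mice (1.91, 1.11 and 1.52), with an exact permutation p of 0.1 each. Of the 24 tests, 0 had an adjusted p under 0.05, which this design does not allow.

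**Figure D3:**
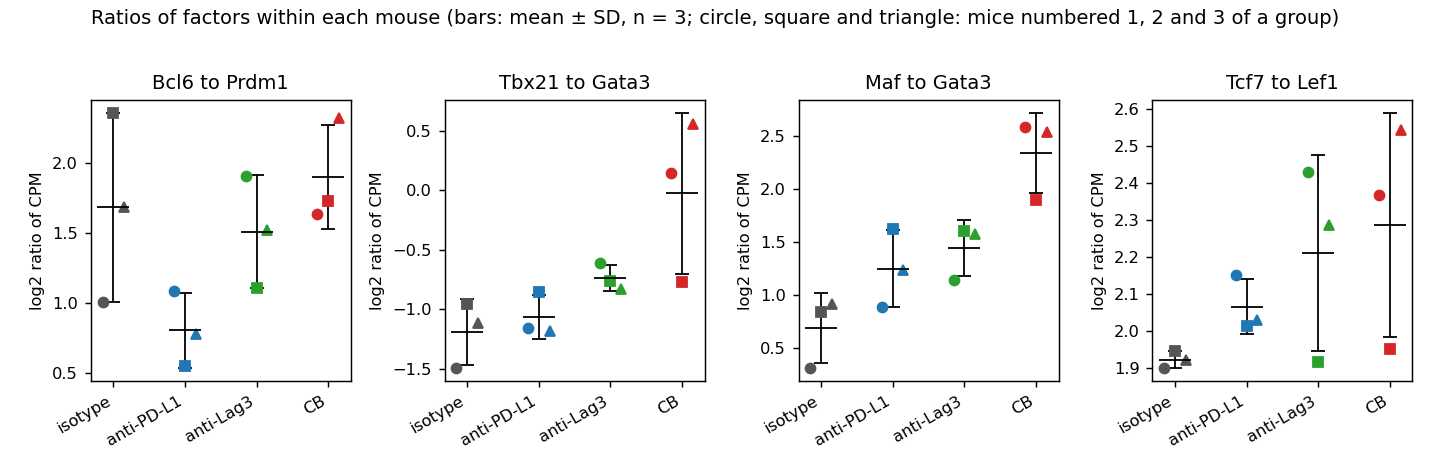
Log2 ratios of CPM (vertical axis) for 4 pairs of factors in each of the 12 mice, by group, with mean and SD (n = 3). For *Maf* to *Gata3* the 3 CB points, from 1.90 to 2.58, lie above all others, and for *Tcf7* to *Lef1* the isotype points are tightly grouped.

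Genes chosen by name as associated with the factors or their lineages were described as 7 lists of 12 genes each, by their counts of calls beside all genes (4.29%) in CB against isotype. A place on a list does not show that the factor controls the gene. Of the 11 tested genes associated with *Bcl6* and *Maf*, 3 rose and 0 fell. They were *Icos*, a costimulatory receptor, which went from 371.9 ± 45.4 to 597.1 ± 70.8 CPM, *Il21*, the follicular helper cytokine, from 8.04 ± 6.18 to 36.0 ± 2.24 CPM, and *Irf4*, a factor induced by receptor signalling, from 66.5 ± 11.7 to 114.3 ± 32.3 CPM. *Cxcr5*, the receptor that guides cells to the follicle, stood at 44.2 ± 6.40 CPM in isotype and 46.0 ± 8.22 in CB. Of the 11, 7 had an unadjusted p under 0.05 (14.9% of all genes), and 4 of these did not pass the adjusted test and had fitted values below 0: *Sh2d1a*, which encodes the adaptor SAP, at -0.63 (40.9 ± 4.72 CPM in isotype and 26.4 ± 6.79 in CB), *Pou2af1* at -0.39, *Tox* at -0.38 and *Slamf6* at -0.22. The list's median log2 fold change was 0.06 (0 for all genes). *Irf4* (log2 fold change 0.78, SE 0.19, adjusted p = 0.0122) lost its call without isotype mouse 3 (0.64), without CB mouse 1 (0.54) or without the 4 samples numbered 1 (0.59, adjusted p = 0.142). *Icos* was called against anti-PD-L1 too (0.53, SE 0.10, adjusted p = 0.0204). That call was lost without anti-PD-L1 mouse 1 (0.51) or 2 (0.53) and without CB mouse 1 (0.51) or 2 (0.44), and without the 4 samples numbered 1 its adjusted p was 0.0605.

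Of the 11 tested genes associated with *Tbx21*, 2 rose and 0 fell, with a list median of 0.20. *Il12rb2*, the inducible chain of the IL-12 receptor, had 7.68 ± 0.665 CPM in isotype and 20.6 ± 2.79 in CB (log2 fold change 1.42, SE 0.37, adjusted p = 0.0208), while anti-Lag3 mice had 6.42 ± 2.19 CPM. It was called against anti-Lag3 as well (1.68, SE 0.37, adjusted p = 0.0234). Both calls rested on few mice: the first was lost without any one isotype mouse or without CB mouse 2 or 3 (1.32 to 1.49). The second was lost without anti-Lag3 mouse 1 or 3 or without any one CB mouse (1.48 to 1.77). Without the 4 samples numbered 1 neither was made (adjusted p = 0.0563 and 0.176). *Runx3*, a partner of T-bet, went from 179 ± 17.9 to 258.1 ± 30.7 CPM (0.53, SE 0.11, adjusted p = 0.00392).

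For *Gata3*, only 7 of the 12 associated genes had enough reads to be tested, and *Il5* was at 0 in every sample. A zero in a sample taken alone leaves room for an expected count of up to 3 (95% limit). *Nfil3*, a basic leucine zipper factor, rose from 3.95 ± 0.578 to 15.2 ± 5.06 CPM (log2 fold change 1.94, SE 0.46, adjusted p = 0.0104), and 0 of the 7 fell. Its call was lost without isotype mouse 2 (1.83), CB mouse 1 (1.83) or CB mouse 3 (1.77). The list median was 0.06, with 4 of the 7 fitted higher, and *Gata3* itself was at -0.95. This median leaves out the Th2 cytokine genes *Il4*, *Il5* and *Il13*, which were not tested. It takes in 2 genes of few reads that were fitted higher, *Il1rl1* (178 reads in all, SE 2.14) and *Ccr4* (218 reads, SE 2.26). It therefore says little about genes that depend on *Gata3*. Of the 10 tested genes associated with *Rora*, 1 rose and 0 fell, and the median was 1.10, with several genes of few reads. The one called was *Ccr6*, a chemokine receptor of Th17 cells, at 2.89 ± 2.30 CPM in isotype, 24.0 ± 4.71 with anti-PD-L1, 6.63 ± 3.45 with anti-Lag3 and 35.7 ± 4.73 in CB. It was called for CB against isotype (3.62, SE 0.45, adjusted p = 1.66e-05), for anti-PD-L1 against isotype (3.05, SE 0.45, adjusted p = 0.00425) and for CB against anti-Lag3 (2.43, SE 0.43, adjusted p = 0.00319). The call for anti-PD-L1 against isotype was lost without isotype mouse 2 (2.89). *Ccr6* was thus high in both groups that had received anti-PD-L1, whereas *Rora* had a mean of 26.6 ± 2.17 CPM with anti-PD-L1 and 45.4 ± 8.96 in CB.

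All 12 genes associated with *Foxp3* were tested, and 1 rose and 1 fell, with a median of 0.25. *Il2ra*, the alpha chain of the IL-2 receptor, which activated cells make as well, went from 21.2 ± 6.14 to 42.2 ± 16.2 CPM (log2 fold change 0.99, SE 0.27, adjusted p = 0.0288). *Izumo1r* (folate receptor 4) fell from 52.8 ± 11.5 to 26.8 ± 5.31 CPM (-0.98, SE 0.20, adjusted p = 0.00339). The *Il2ra* call was lost without isotype mouse 1 (0.77), CB mouse 2 (1.00) or CB mouse 3 (0.68). Without the samples numbered 1, *Izumo1r* was at -0.63 and no longer called. Of the 12 genes associated with *Prdm1*, 0 rose and 0 fell in edgeR, 1 (*Runx1*) had an unadjusted p under 0.05, and the median was 0.08. DESeq2 called *Runx1* (6.06% of all genes), which had 44.9 ± 2.24 CPM in isotype and 24.8 ± 4.38 in CB.

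Of the 12 genes associated with *Tcf7* and *Lef1*, 3 fell and 0 rose, where 1.96% of all genes fell, and the median was -0.30. DESeq2 called these 3 and *Foxp1* (543.8 ± 36.3 CPM in isotype and 437.1 ± 36.7 in CB, adjusted p = 0.058 in edgeR). *Dapl1*, a transcript of naive T cells, stood at 199.1 ± 54.6 CPM in isotype, 107.3 ± 31.6 with anti-PD-L1, 129.5 ± 15.9 with anti-Lag3 and 55.8 ± 6.77 in CB (CB against isotype -1.84, SE 0.19, adjusted p = 1.85e-06). *S1pr1*, the receptor that lets T cells leave lymphoid organs, stood at 128.6 ± 10.7, 74.3 ± 1.78, 100.1 ± 10.4 and 48.3 ± 14.7 CPM in the same order of groups (-1.41, SE 0.17, adjusted p = 1.03e-05). *Foxo1*, a factor of quiescent cells, fell from 235.7 ± 18.1 to 159.7 ± 8.82 CPM (-0.56, SE 0.11, adjusted p = 0.00203), and without the samples numbered 1 it was at -0.45 and not called. The CB mice were also below the single antibodies by the test for *Dapl1* (-0.94 against anti-PD-L1, adjusted p = 0.0238, and -1.21 against anti-Lag3, adjusted p = 0.00116) and for *S1pr1* against anti-Lag3 (-1.05, adjusted p = 0.00144). *Foxo1* was called against anti-PD-L1 (-0.49, adjusted p = 0.0443). That *Foxo1* call was lost without isotype mouse 2, any one anti-PD-L1 mouse, anti-Lag3 mouse 2 or 3 or any one CB mouse (-0.515 to -0.435). The *Dapl1* call against anti-PD-L1 was lost without anti-PD-L1 mouse 1 (-0.75) or 3 (-0.89) and without CB mouse 1 (-0.98), 2 (-1.005) or 3 (-0.85). Without the 4 samples numbered 1 both calls were lost as well (adjusted p = 0.201 for *Foxo1* and 0.174 for *Dapl1*). Over all comparisons the 7 lists gave 20 calls, of which 12 were also made without the 4 samples numbered 1. Unadjusted p-values under 0.05 in CB against isotype were found for 14.9% of all genes. They numbered 2 of 11 tested for the *Tbx21* list, 2 of 7 for *Gata3*, 4 of 10 for *Rora* and 4 of 12 for *Foxp3*. For *Tcf7* and *Lef1* they numbered 9 of 12, of which 8 were fitted lower. Fitted to the compared groups alone, the calls against anti-PD-L1 were lost for *Icos* (adjusted p = 0.0792), *Foxo1* (0.143) and *Dapl1* (0.0819), and so was that of *Il2ra* against isotype (0.0543). The same 4 calls were lost when tested against a log2 fold change of 0.2 (adjusted p = 0.064 to 0.289), as was that of *Il12rb2* against anti-Lag3 (adjusted p = 0.0563).

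**Figure D4:**
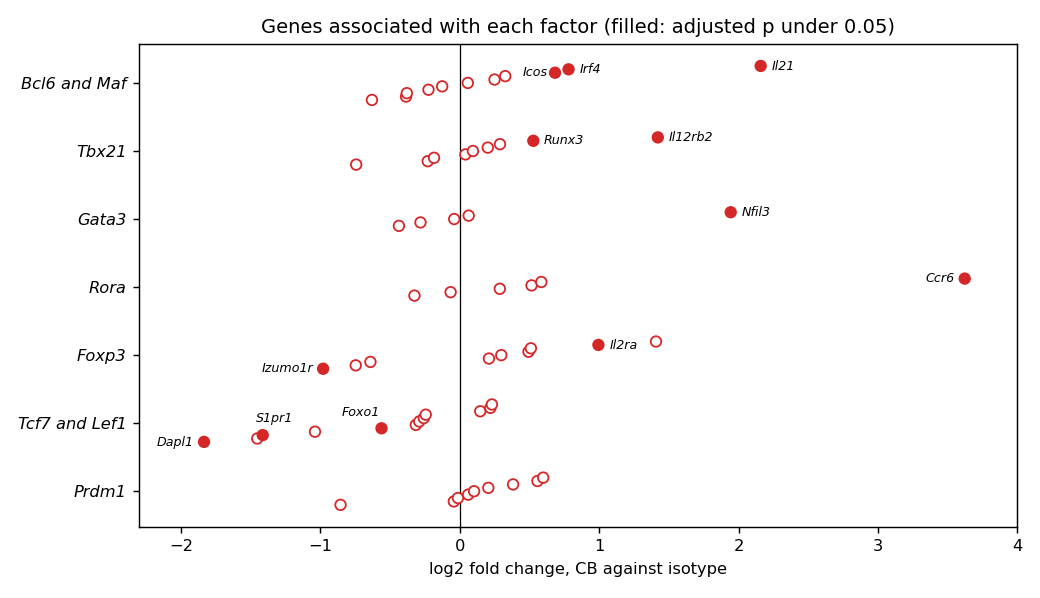
Log2 fold change of CB against isotype (horizontal axis) for 61 genes of the 7 lists that had a standard error under 1, by the factor they are associated with, with the called genes filled and named. The points of *Tcf7* and *Lef1* lie mostly to the left of 0, and the named points of *Bcl6* and *Maf*, *Tbx21*, *Gata3* and *Rora* lie to the right.

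The summed levels of several marker lists did not overlap between CB and isotype. The summed erythroid markers were 159 to 310 CPM in isotype and 114 to 148 CPM in CB (1 of 6 called), the summed NK cell markers 23 to 35.6 and 12.6 to 22 CPM (1 of 6 called), and the summed CD4+ T cell markers 2570 to 2710 and 2280 to 2430 CPM (2 of 8 called). *Cd8b1*, which led the CD8+ markers, put their sum at 40.9 to 45.3 CPM in isotype and 25 to 33.2 CPM in CB (0 of 2 called). Of all genes tested singly, 20% did not overlap between CB and isotype and 4.29% were called. The part of these shifts in the values of the 9 factors was not tested.

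For each called factor, the genes of most like pattern were found by the mean absolute difference of centred log2 CPM over the 12 samples, among 10447 other genes whose mean count was 30 or more. This is a description of profiles, without a test. Nearest to *Maf* were *Furin* (0.0962), *Eif2s2* (0.107) and *Fcf1* (0.109), where the median gene was 0.372 away. *Furin* encodes a proprotein convertase, *Eif2s2* a subunit of a translation initiation factor and *Fcf1* a ribosome processing protein. Nearest to *Gata3* were *Cd37* (0.121), a tetraspanin, and *Arl4c* (0.123), a small GTPase, with a median of 0.431. Nearest to *Tcf7* were *Arpc5* (0.045), *Jak1* (0.0576) and *Lmnb1* (0.0596), an actin-related, a kinase and a nuclear lamina gene, with a median of 0.293. Nearest to *Lef1* were *Rbms1* (0.0984), *Gpsm3* (0.102) and *Prr14* (0.108), with a median of 0.364. *Tcf7* and *Lef1* were not among the 3 nearest genes of each other, which the measure did not allow. It keeps the size of the deviations, whose mean absolute value was 0.115 for *Tcf7* and 0.234 for *Lef1*. That gap alone exceeds the distance of the third nearest gene, so nothing follows about the shape of their profiles.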

How the data were processed

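RNA of sorted splenic CD4+ *Nr4a3*-Timer Blue+Red+ cells from 12 mice was sequenced (QuantSeq). Per the labels and methods, the authors trimmed reads with cutadapt 1.18, mapped them with STAR 2.6.1a to GRCm38 and counted genes with featureCounts 1.6.4. They deposited raw read counts and a table of rlog values, log2 values shrunken by DESeq2. The annotation release and the strand setting are not given in the sources used here. Symbols and loci were taken from GENCODE for GRCm38, which names 52073 of the 56691 genes, and 114 spike-ins (0.719% to 1.29% of counts) were left out. Reads have no molecular identifiers, so counting limits cover counting error only.

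Counts were tested with edgeR 4.0.16 (R 4.3.3): TMM scaling, 1 fit of 4 group means to 12 samples, the quasi-likelihood F test, and p-values adjusted by Benjamini and Hochberg's method over 15138 genes (at least 30 reads in sum, fold changes with a prior count of 0.125, called under an adjusted p of 0.05). SEs are the log2 fold change divided by the root of F. CPM are TMM-scaled, and ratios used log2 CPM with a prior count of 0.5. Replicates of a group differed by far more than sampling noise (mean chi-square 22.4 to 55.5 per gene, with 1 from sampling alone), so none was counted as a duplicate. The fit was checked on simulated data. Alternatives were DESeq2 1.42.0, limma 3.58.1 on rlog values, other scaling and filters, a fold change threshold of 0.2 (log2), a replicate block and omission of samples. DESeq2 gives some genes no adjusted p. Such genes were counted as not called and kept in the base of its shares of all genes.

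Named were the 9 factors, called genes of the lists, genes of most like pattern and overlapping genes. Added after results were seen were *Cxcr5*, *Sh2d1a*, *Pou2af1*, *Tox*, *Slamf6*, *Runx1*, *Foxp1*, *Cd3d*, *Cst3*, *Cd14*, *Cd8b1*, *Il4*, *Il5*, *Il13*, *Il1rl1* and *Ccr4*. The factors, lists and tests were chosen with earlier results of these data known. Some items are not reported here.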

Additional observations from a re-analysis of the deposited data

How the results depend on the processing

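*Maf* and *Gata3* kept their calls for CB against isotype in all 12 fits without 1 sample and in the 9 other alternatives, *Lef1* in 11 and 9, and *Tcf7* in 5 and 6. *Tcf7* also lost its call without a filter on low counts (adjusted p = 0.0686). Counts of called factors changed as follows. For CB against anti-PD-L1 the count went from 0 to 1 with DESeq2, to 2 with no filter on low counts and to 2 with a replicate block (*Maf* and *Gata3*), and was 0 to 1 with 1 sample left out. For CB against anti-Lag3 it went from 0 to 1 (*Rora*) with DESeq2, with no filter, with the replicate block and with limma on the rlog values, and was 0 to 1 with 1 sample left out. For any difference among the groups it went from 3 to 5 with DESeq2, to 4 (*Rora* added) with no filter, the replicate block or limma on the rlog values, was 0 to 3 with 1 sample left out and 0 without the 4 samples numbered 1, an alternative added after the data were seen. For CB against isotype it was 2 to 4, with 2 without CB mouse 3. The causes of these changes were not tested.

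Over all genes, calls in CB against isotype were 649 in edgeR, 918 with DESeq2 and 843 with the replicate block. For anti-PD-L1 against isotype they were 5, 56 and 23, for anti-Lag3 against isotype 0, 9 and 9, for CB against anti-PD-L1 56, 178 and 137, for CB against anti-Lag3 105, 280 and 208, for anti-PD-L1 against anti-Lag3 0, 10 and 0, for the interaction 0, 5 and 4 and for any difference 326, 625 and 550. Cells were sorted in batches of 4, and whether the sample numbers mark these batches is not given in the sources used here, so the block was kept as an alternative. Correlations of deviations from the group means were -0.0619 to 0.121 for 18 pairs with the same number, 2 of them over 0.1, and -0.124 to 0.075 otherwise, and 10 of 12 samples correlated best with their own number.

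Reversals were found only for values that had not passed the test. With the replicate block *Prdm1* for CB against anti-Lag3 was 0.0592, and with rlog values it was 0.0006181 and *Tbx21* for anti-Lag3 against isotype -0.0013. Without the samples numbered 1, *Tbx21* for anti-Lag3 against isotype was -0.19, *Bcl6* -0.12 for anti-PD-L1 against isotype and -0.0278 against anti-Lag3, and the interactions were -0.14 for *Foxp3*, -0.0018 for *Tcf7* and -0.0367 for *Lef1*. With 1 sample left out, log2 fold changes for CB against isotype ranged from -0.0211 to 0.36 for *Tbx21* and -0.12 to 0.51 for *Prdm1*. For anti-PD-L1 against isotype they were -0.21 to 0.34 for *Bcl6* and -0.30 to 0.0827 for *Rora*, and for anti-Lag3 against isotype -0.30 to 0.27 for *Bcl6*, -0.10 to 0.14 for *Tbx21* and -0.31 to 0.54 for *Prdm1*. *Foxp3* was -0.85 to 0.24 for CB against anti-PD-L1. Against anti-Lag3, CB gave -0.0245 to 0.35 for *Tbx21* and -0.34 to 0.52 for *Prdm1*, and anti-PD-L1 gave -0.12 to 0.33 for *Bcl6*, -0.16 to 0.0906 for *Maf*, -0.93 to 0.16 for *Foxp3* and -0.04075 to 0.18 for *Lef1*. The interactions were -0.0056 to 0.28 for *Maf*, -0.14 to 0.95 for *Foxp3* and -0.0173 to 0.25 for *Lef1*. The log2 ratio of *Bcl6* to *Prdm1* ranged from -0.13 to 0.55 for CB and -0.51 to 0.16 for anti-Lag3 against isotype, that of *Tbx21* to *Gata3* from -0.0312 to 0.24 for anti-PD-L1 against isotype and that of *Tcf7* to *Lef1* from -0.07025 to 0.24 for CB against anti-Lag3.

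*Foxp3* and *Prdm1* had the fewest reads of the 9 factors (609 and 1981 in all) and the largest fitted biological coefficients of variation (0.735 and 0.403). How much of their error comes from depth was not tested.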
